A study of Mus musculus with 8 samples.

Results

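RNA sequencing counts were examined for the interleukin and tumor necrosis factor (TNF) genes of mouse myocardium, that is, every gene whose symbol starts with Il, Tnfsf or Tnfrsf and a digit, together with Tnf itself. The rule used names and no measured value. It found 101 of the 33249 genes in the deposited table, 68 of them interleukin-named and 33 TNF-named. By role they comprised 37 ligands, 54 receptors, 7 decoy receptors or inhibitors, 2 antisense RNAs and 1 enzyme. FPKM, the authors' measure of fragments scaled to gene length and library size, averaged 0.5 or more for 48 members, which were tested, and less for the other 53.

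The hearts came from Piezo1 fl/fl mice, whose Piezo1 alleles are flanked by loxP sites. CKO mice also carried a tamoxifen-inducible Cre driven by the cardiomyocyte promoter Myh6, were given tamoxifen at 4 weeks of age, and were meant to lose Piezo1, a stretch-activated cation channel, in cardiomyocytes only. The fl/fl mice were littermates without the Cre transgene, labelled WT, and whether they also received tamoxifen was not stated. Surgery at 8 weeks was either permanent ligation of the left anterior descending artery, giving myocardial infarction (MI), or a sham operation, and the MI hearts were labelled as taken on day 42. Each combination of genotype and surgery had 2 libraries, and the groups are called fl/fl-Sham, fl/fl-MI, CKO-Sham and CKO-MI here. The sham labels give no day, neither the region of the heart sampled nor the animals behind a library was stated, and p-values measure only the spread between these libraries.

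Interleukins and TNF ligands are secreted or membrane-bound messengers through which immune and stromal cells signal to each other. Most interleukin receptors pair a ligand-specific chain with a shared signalling chain and pass the signal to JAK kinases and STAT factors, while receptors of the interleukin-1 (IL-1) and TNF families act through adaptors that reach NF-kappaB, and some TNF receptors also recruit cell death proteins. In the infarcted heart these families are known from the early inflammatory phase and from the scar formation that follows it.

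The libraries held 73821747 to 88117573 deposited counts. Piezo1, the targeted gene, had CPM values (counts scaled to library size with TMM factors) of 72.2 and 82.0 for fl/fl and 76.7 and 88.3 for CKO hearts after sham surgery. After MI these were 53.5 and 64.8 for fl/fl and 56.3 and 64.6 for CKO hearts. Libraries labelled CKO thus held no less of it than their controls, and bulk counts of a gene that other heart cells also express do not check a deletion in cardiomyocytes. The paper reports a check of the deletion by Western blot in isolated adult cardiomyocytes. Library 2 of fl/fl-MI stood apart: Bmp10 and Myl4, which mark atrial muscle, were at 3834 and 2810 CPM there and at no more than 18.8 and 48.0 CPM in any other library, and results are given with and without it. The defining cardiomyocyte markers Myh6 and Tnnt2 were high in every library, and the 8 cardiomyocyte markers summed to 30450 to 33230 CPM in sham and 21280 to 37090 CPM in MI libraries. Mitochondrially encoded genes took 43.1% to 46.4% of counts in sham and 19.9% to 24.2% in MI libraries.

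On the FPKM scale, which allows genes to be compared, the highest members were receptors. Tnfrsf1a, the main receptor for TNF, had a mean of 29.5 FPKM over the 8 libraries. Tnfrsf12a, the receptor for the cytokine TWEAK, followed at 24.4 FPKM, and Il6st, the signal-transducing chain gp130 shared by the interleukin-6 (IL-6) family, at 20.6 FPKM. Il10rb and Il11ra1, chains of the receptors for IL-10 and IL-11, stood at 16.0 and 14.3 FPKM. Il13ra1 and the TWEAK gene Tnfsf12 were the other members with a mean of at least 10 FPKM, at 11.6 and 10.6. Among the 48 tested members 14 had a mean below 1 FPKM, and only 13 of the 37 ligands were tested against 31 of the 54 receptors. The cytokines most often measured after infarction were scarce: Tnf had a mean of 0.396 FPKM, Il1b 1.12, Il6 0.739 and Il10 0.343.

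**Figure D1:**
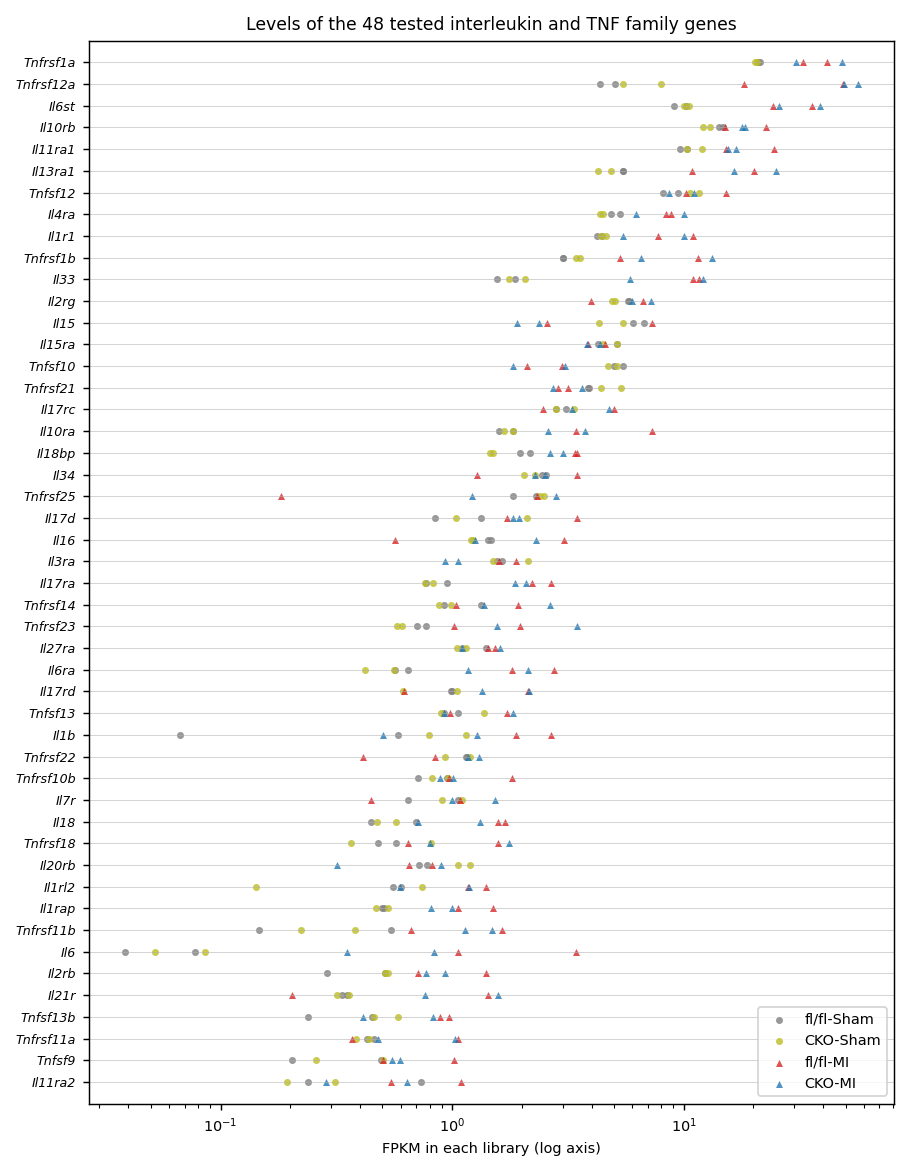
FPKM of the 48 tested interleukin and TNF family genes in each of the 8 libraries, on a log axis, with circles for sham and triangles for MI libraries and genes ordered by their mean. Receptors such as Tnfrsf1a, Tnfrsf12a and Il6st lie at the top, and Il6, at no more than 0.0853 FPKM in sham libraries, shows the widest gap between sham and MI. The median of all genes tested was itself higher in MI libraries, by 0.41 on log2(FPKM + 1).

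The first question was which members differed after MI with the genotypes pooled, 4 MI against 4 sham libraries. With edgeR's quasi-likelihood test and a Benjamini-Hochberg adjusted p under 0.05 over all 14028 genes tested, 19 of the 48 members were called (39.6%), 11 higher (22.9%) and 8 lower (16.7%). Among all genes tested 40.4% were called, 22.0% higher and 18.3% lower, so the share of members called was near the background in either direction. At an unadjusted p under 0.05 with at least 2-fold change, 10 members were called (20.8%) against 16.0% of all genes. The 4 MI libraries did not overlap the 4 sham libraries for 17 members (35.4%) and for 40.4% of all genes. The median log2 fold change of the members was 0.23 (30 higher, 18 lower) and that of all genes 0.03. On the authors' FPKM the median of all genes itself moved by 0.41, and there 21 members were called higher and 2 lower by limma on log2(FPKM + 1), a different split from the 11 and 8 above. These were 47.9% of the members, against 56.1% of all genes in that fit, and 9 members that were lower on counts were higher there. Relative to that median 25 members lay above and 23 below, and all 19 members called on counts kept their side of it. The FPKM rest on the same counts, so this is no separate check.

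By role, 2 of 13 tested ligands were called higher and 3 lower, 8 of 31 receptors higher and 4 lower, and 1 of 4 decoys or inhibitors in each direction. These counts, and those by family below, stand against 22.0% of all genes called higher and 18.3% lower. No difference between roles or families was tested. Leaving out any 1 of the 8 libraries in turn leaves a group with 1 library, and it moved the calls among members and among all genes the same way. Some of the 19 called members lost their call in at least 1 of those fits, as given with each gene below. Without fl/fl-MI 2, all 19 kept their direction. In bulk tissue, fewer cells of a type and less RNA per cell cannot be told apart. The 8 fibroblast markers summed to 1414 to 1559 CPM in sham and 2223 to 6426 CPM in MI libraries, the 8 endothelial markers to 1835 to 2131 and 661.6 to 1109 CPM, and neither pair of ranges overlapped (exact permutation test, two-sided p = 0.0286 for each, the smallest that 4 against 4 libraries allow). The 8 macrophage markers summed to 457.4 to 508.7 CPM in sham and 441.8 to 1142 CPM in MI libraries, and the ranges overlapped (exact permutation p = 0.143). The markers of T cells stayed within 6.65 to 19.8 CPM over all 8 libraries, those of B cells within 3.96 to 10.6, of neutrophils within 6.06 to 14.5 and of mast cells within 10.5 to 33.0. The part of these cell markers in the changes below was not tested.

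**Figure D2:**
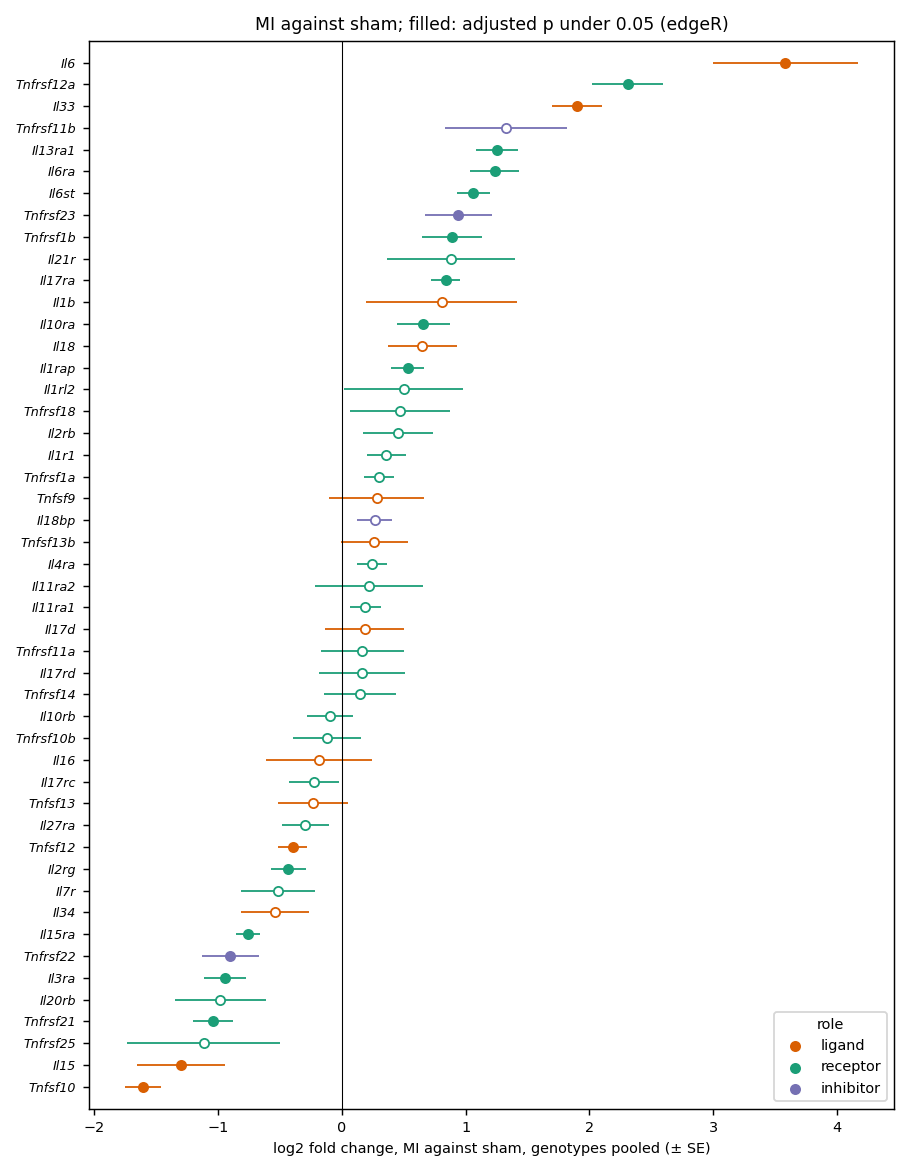
Log2 fold change of MI against sham libraries with the genotypes pooled, with its standard error, for the 48 tested members coloured by role; filled points passed an adjusted p under 0.05 in edgeR. Il6 at 3.58, Tnfrsf12a at 2.31 and Il33 at 1.897 lead the higher members, and Tnfsf10 at -1.61 and Il15 at -1.30 the lower ones.

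Of the IL-6 family, 6 of 10 members were tested and 3 were called, all higher: the cytokine Il6, its receptor chain Il6ra and the shared chain Il6st. Library values below are in the order fl/fl 1, fl/fl 2, CKO 1 and CKO 2. Il6 was at 0.136, 0.237, 0.272 and 0.181 CPM in sham libraries and at 2.04, 7.64, 1.89 and 0.690 CPM in MI libraries. Every MI library was above every sham library, but the MI values spread over more than 10-fold, and fl/fl-MI 2 alone was well above the other three. The pooled log2 fold change was 3.58 ± 0.59 (SE, n = 4 and 4, edgeR adjusted p = 0.00415), and 2.96 ± 0.46 without fl/fl-MI 2 (adjusted p = 0.00180). Il6 reached the 0.5 FPKM minimum only through its MI libraries, and 9 tested members had a sham mean below 0.5 FPKM, of which Il6 and Il1rap were called.

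Il6st is the most abundant of the family and rose from 131, 138, 145 and 142 CPM in sham to 312, 248.5, 264 and 338.5 CPM in MI libraries, with no overlap. Its log2 fold change was 1.06 ± 0.13 (edgeR adjusted p = 0.00159). Il6ra, which binds IL-6 before the complex engages gp130, was at 7.26, 5.94, 6.09 and 4.67 CPM in sham and 18.6, 14.4, 9.37 and 14.5 CPM in MI libraries (log2 fold change 1.23 ± 0.20, edgeR adjusted p = 0.00404). Both chains thus stood about 2-fold higher in every MI group, and both stayed called when any 1 library was left out. The receptor genes for IL-11 and IL-27 did not pass the test: Il11ra1 differed by 0.19 ± 0.12, Il11ra2 by 0.22 ± 0.43 and Il27ra by -0.30 ± 0.19 on the log2 scale. Il11ra1 and Il11ra2 are near-identical copies, and Il11ra1 also overlaps Galt and other genes, so its reads are uncertain. Il11 itself, a cytokine linked to fibrosis, was below the filter at 0, 4, 14 and 19 counts in sham and 69, 12, 64 and 74 counts in MI libraries. In CPM these were 0 to 0.313 in sham and 0.145 to 0.763 in MI libraries.

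The promoter of Il6 is shown because it carries the members' highest fold change and, alone among the 16 promoter windows of called members, a kappaB match. The window is the 250 bases before the RefSeq start site at chr5:30012864-30013113 on GRCm38.p6, plus strand, with an AP-1 match (TGANTCA) and a kappaB match in capitals.
Il6: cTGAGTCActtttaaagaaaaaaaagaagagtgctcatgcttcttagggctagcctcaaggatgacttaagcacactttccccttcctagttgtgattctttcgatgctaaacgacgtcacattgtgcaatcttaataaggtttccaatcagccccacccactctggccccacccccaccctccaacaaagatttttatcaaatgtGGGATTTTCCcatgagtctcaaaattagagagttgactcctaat
The kappaB match spans bases -44 to -35 from the start site and the AP-1 match bases -249 to -243. RefSeq windows were found for 78 of the 101 members and 14 of the 19 called. The 5 motifs searched on both strands were a strict kappaB pattern (GGG, any 2 bases, TTTCC), a looser one that contains it (GGG, any 3 bases, TTCC), AP-1 (TGANTCA), STAT (TTCNNNGAA) and IRF (TTTC, any 2 bases, TTTC). Of all 32851 windows of this length 1.41%, 4.65%, 6.75%, 7.02% and 2.98% held them, in that order. Of the 96 windows of members 7.29%, 10.4%, 15.6%, 13.5% and 6.25% held them, and of the 16 windows of called members 1, 1, 2, 1 and 1 did. A match says that these letters are present and shows no binding.

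In the IL-1 family, 7 of 16 members were tested, and Il33 and Il1rap were called, both higher. Il33, a cytokine stored in the nuclei of stromal cells and released on damage, was at 5.85, 6.54, 6.32 and 7.63 CPM in sham and 26.2, 29.2, 15.6 and 27.7 CPM in MI libraries. The MI values were all at least 2-fold above the highest sham value, with CKO-MI 1 the lowest of them. The log2 fold change was 1.897 ± 0.20 (edgeR adjusted p = 0.00106) and lay between 1.64 and 2.05 when single libraries were left out. Il1rap, the signalling partner chain for the IL-1, IL-33 and IL-36 receptors, was at 7.55, 6.85, 7.47 and 6.81 CPM in sham and 13.4, 11.2, 8.54 and 8.96 CPM in MI libraries (log2 fold change 0.53 ± 0.13, edgeR adjusted p = 0.0181). Its call was lost in 5 of the 8 fits that left out a library.

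The other measured IL-1 family genes did not pass. Il1b was at 0.171, 1.36, 1.89 and 2.81 CPM in sham and 3.99, 3.33, 2.26 and 0.773 CPM in MI libraries, so that the ranges overlapped (log2 fold change 0.81 ± 0.61, edgeR adjusted p = 0.323). Reads of Il1b also cannot be told apart from those of its antisense gene Il1bos, since the counting strand was not stated. Il18 differed by 0.65 ± 0.28 on the log2 scale (edgeR adjusted p = 0.106), and Il1r1, the IL-1 receptor, by 0.36 ± 0.16 (adjusted p = 0.111). Il18bp, the soluble inhibitor of IL-18, differed by 0.26 ± 0.14 (adjusted p = 0.174). The IL-33 receptor Il1rl1 lay below the filter at 77, 112, 115 and 150 counts in sham and 161, 189, 72 and 103 counts in MI libraries, and the groups overlapped. Scaled to library size, its mean was 1.78 CPM in sham and 1.43 CPM in MI libraries. The receptor antagonist Il1rn, at 95 to 213 counts in sham and 163 to 315 in MI libraries, and the decoy receptor Il1r2, at 4 to 47 and 37 to 107 counts, were below the filter as well.

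Il33 has 2 annotated starts, and the transcript values separate them. The transcript from the upstream start, ENSMUST00000120388, was at 1.77, 1.38, 1.99 and 2.35 FPKM in sham and 13.0, 12.0, 6.67 and 13.8 FPKM in MI libraries. The transcript from the downstream start, ENSMUST00000025724, was listed at 0 in 5 of the 8 libraries and at no more than 0.731 FPKM in the others. The upstream start thus gave 96.0% or more of the gene's transcript FPKM in 7 libraries and 65.4% in fl/fl-Sham 2. The 2 windows of 250 bases before these starts are printed so that the used and the little-used promoter can be compared. The upstream one is chr19:29924863-29925112 and the downstream one chr19:29945540-29945789, both on the plus strand of GRCm38.p6 from RefSeq.
Il33 upstream: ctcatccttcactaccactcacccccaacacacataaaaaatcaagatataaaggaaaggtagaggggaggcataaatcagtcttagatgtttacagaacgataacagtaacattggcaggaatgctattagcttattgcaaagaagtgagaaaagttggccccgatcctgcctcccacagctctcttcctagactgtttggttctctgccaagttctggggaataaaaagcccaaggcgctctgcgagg
Il33 downstream: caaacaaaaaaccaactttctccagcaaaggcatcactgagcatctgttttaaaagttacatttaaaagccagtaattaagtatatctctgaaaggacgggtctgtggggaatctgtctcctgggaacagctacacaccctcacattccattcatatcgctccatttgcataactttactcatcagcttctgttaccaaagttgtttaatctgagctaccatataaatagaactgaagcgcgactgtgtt
None of the 5 motifs has a match in either window, which says only that those letters are not in these bases.

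**Figure D3:**
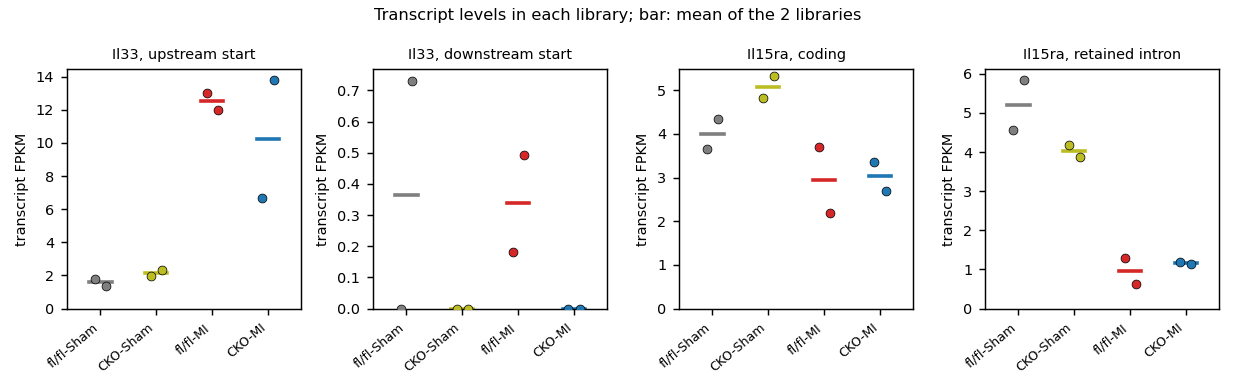
Transcript FPKM in each library for the 2 starts of Il33 and for a coding and a retained-intron transcript of Il15ra, with a bar at the mean of the 2 libraries of a group. The upstream Il33 transcript is at 6.67 to 13.8 FPKM in MI libraries against at most 2.35 in sham, and the Il15ra retained-intron transcript is at 3.88 to 5.85 FPKM in sham and 0.619 to 1.30 in MI libraries.

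Of the TNF receptor superfamily, 12 of 20 members were tested, with 3 called higher and 2 lower. Tnfrsf12a had the largest rise, from 12.7, 10.2, 13.2 and 19.8 CPM in sham to 73.5, 32.3, 100.3 and 75.1 CPM in MI libraries. All MI libraries were above all sham libraries, and fl/fl-MI 2 was the lowest of the 4 by more than 2-fold. The log2 fold change was 2.31 ± 0.29 (edgeR adjusted p = 0.00165), and 2.55 ± 0.18 without fl/fl-MI 2. In FPKM it moved from the sixth-ranked member in sham hearts to the highest of all 101 in MI hearts, with means of 5.72 and 43.1. The median of all genes was itself higher in MI libraries, by 0.41 on log2(FPKM + 1). In CPM the means of Tnfrsf12a were 14.0 and 70.3. The gene lies at chr17:23675445-23677468 on the minus strand, and its promoter window, chr17:23677450-23677699 on GRCm38.p6, is shown as that of the most abundant member after MI.
Tnfrsf12a: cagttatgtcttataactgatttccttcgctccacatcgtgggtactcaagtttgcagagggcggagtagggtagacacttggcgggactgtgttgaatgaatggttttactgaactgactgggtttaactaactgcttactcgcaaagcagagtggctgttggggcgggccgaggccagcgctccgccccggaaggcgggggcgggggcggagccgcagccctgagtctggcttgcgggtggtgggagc
It holds no match to any of the 5 motifs.

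Tnfrsf1b, the inducible TNF receptor found mainly on immune and endothelial cells, was at 14.9, 13.9, 16.9 and 16.8 CPM in sham and 34.2, 18.6, 23.1 and 40.1 CPM in MI libraries. The groups did not overlap, but the MI libraries spread over 2-fold (log2 fold change 0.89 ± 0.24, edgeR adjusted p = 0.0242), and the call was lost in 5 of the 8 fits that left out a library. Its promoter window, chr4:145246871-145247120 on the minus strand of GRCm38.p6, is the only one of a called member with a STAT or an IRF match, both in capitals.
Tnfrsf1b: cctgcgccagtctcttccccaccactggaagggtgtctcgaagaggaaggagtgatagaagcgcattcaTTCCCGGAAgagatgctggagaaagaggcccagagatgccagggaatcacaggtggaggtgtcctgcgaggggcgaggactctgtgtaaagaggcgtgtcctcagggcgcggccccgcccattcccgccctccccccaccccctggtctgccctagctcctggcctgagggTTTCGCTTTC
The STAT match starts at base -181 and the IRF match ends at the base before the start site. Tnfrsf1a, the constitutive TNF receptor, did not pass: it was at 65.8 to 71.6 CPM in sham and 72.9 to 98.3 CPM in MI libraries, not overlapping (log2 fold change 0.30 ± 0.12, edgeR adjusted p = 0.0854). Tnf was below the filter at 31, 54, 29 and 34 counts in sham and 59, 54, 62 and 89 counts in MI libraries. Scaled to library size these were 0.395 to 0.855 CPM in sham and 0.557 to 0.917 CPM in MI libraries, which overlapped.

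The 2 decoy receptors for TRAIL, Tnfrsf22 and Tnfrsf23, lie side by side on chromosome 7 and went opposite ways. Tnfrsf23 was at 4.01, 3.42, 2.87 and 3.09 CPM in sham and 6.12, 3.74, 5.72 and 10.9 CPM in MI libraries, and Tnfrsf22 at 6.29, 5.94, 6.31 and 5.02 CPM in sham and 2.80, 1.62, 5.06 and 3.93 CPM in MI libraries. Sham and MI libraries overlapped for both (log2 fold changes 0.94 ± 0.27 and -0.90 ± 0.23, edgeR adjusted p = 0.0291 and 0.0200), and the calls were lost in 5 and 4 of the fits that left out a library. On log2(FPKM + 1) the call of Tnfrsf22 was lost (-0.15 ± 0.12, limma adjusted p = 0.326). They are close copies, so how their shared reads were divided is uncertain. Tnfrsf21, death receptor 6, was at 20.7, 19.4, 27.4 and 23.1 CPM in sham and 10.2, 10.9, 13.8 and 8.89 CPM in MI libraries, with no overlap (log2 fold change -1.04 ± 0.16, edgeR adjusted p = 0.00339). Tnfrsf11b, osteoprotegerin, the decoy for RANKL, was at 0.506 to 1.995 CPM in sham and 1.73 to 3.84 CPM in MI libraries and did not pass (log2 fold change 1.33 ± 0.49, edgeR adjusted p = 0.0687), while DESeq2 called it (adjusted p = 0.0210).

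Of the TNF ligands, 5 of 12 were tested, none was called higher and 2 were called lower. Tnfsf10 encodes TRAIL, a ligand that can trigger cell death. It was at 34.3, 34.9, 33.7 and 31.8 CPM in sham and 12.3, 10.2, 8.89 and 12.8 CPM in MI libraries, a narrow range on either side. Its log2 fold change of -1.61 ± 0.14 (edgeR adjusted p = 0.000689) was the lowest and, by p-value, the firmest change among the members, and it stayed called in every alternative fit. Tnfsf12, the ligand of Tnfrsf12a, was at 16.1, 17.3, 21.9 and 20.6 CPM in sham and 18.0, 14.3, 12.0 and 13.3 CPM in MI libraries. Sham and MI libraries overlapped in fl/fl hearts, while both CKO-MI libraries lay below both CKO-Sham libraries. The pooled log2 fold change was -0.40 ± 0.12 (edgeR adjusted p = 0.0337), and the call held in only 2 of the 8 fits that left out a library. The direction turned on the FPKM scale, at 0.15, and Tnfsf12 shares its locus with Tnfsf13, Tnfsfm13 and the antisense Tnfsf13os. The ligand and its receptor therefore did not move together on the count scale. Tnfsf13b, the B-cell factor BAFF, differed by 0.26 ± 0.27 (adjusted p = 0.466).

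The receptors and ligands of the common gamma chain and IL-4/IL-13 group gave 8 tested of 12 members, 1 called higher and 3 lower. Il13ra1, a chain of a receptor for IL-4 and IL-13, was at 26.5, 24.6, 19.6 and 23.1 CPM in sham and 58.1, 37.2, 56.6 and 73.6 CPM in MI libraries, with no overlap (log2 fold change 1.25 ± 0.17, edgeR adjusted p = 0.00213). Its partner Il4ra differed by 0.24 ± 0.12 and did not pass (adjusted p = 0.147). Il4, below the filter, was at 29 to 42 counts in sham and 31 to 43 counts in MI libraries. Scaled to library size this was 0.395 to 0.682 CPM in sham and 0.374 to 0.406 CPM in MI libraries.

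Il15, a survival factor for natural killer and memory T cells, and its high-affinity receptor Il15ra were both called lower on counts. Il15 was at 17.8, 18.5, 15.4 and 12.5 CPM in sham and 4.59, 15.2, 4.99 and 3.45 CPM in MI libraries. In 3 MI libraries it was more than 2-fold below the lowest sham value, while fl/fl-MI 2 lay within the sham range. The log2 fold change was -1.30 ± 0.36 (edgeR adjusted p = 0.0262), and -1.85 ± 0.18 without fl/fl-MI 2 (edgeR adjusted p = 0.000279). Its call held in only 2 of the 8 fits that left out a library, those without an fl/fl-MI library. Il15ra was at 24.8, 27.8, 28.5 and 25.6 CPM in sham and 16.0, 15.9, 15.8 and 15.3 CPM in MI libraries, a narrow range that lay wholly below sham (log2 fold change -0.76 ± 0.10, edgeR adjusted p = 0.00171). On the authors' FPKM the sham and MI ranges of Il15ra overlapped, at 4.28 to 5.14 and 3.84 to 4.57, and the call was lost (-0.16 ± 0.11 on log2(FPKM + 1), limma adjusted p = 0.248), as was that of Il15 (-0.67 ± 0.25, limma adjusted p = 0.0559). The Il15ra transcript values, which were not tested, differed in size of change. The main coding transcript, ENSMUST00000128156, was at 3.66 to 5.32 FPKM in sham and 2.19 to 3.71 FPKM in MI libraries, and the retained-intron transcript ENSMUST00000139774 took 28.9% to 40.9% of the gene's transcript FPKM in sham and 5.94% to 11.7% in MI libraries. Il2rg, the common gamma chain itself, was at 18.0, 16.7, 14.6 and 15.4 CPM in sham and 12.5, 8.75, 13.2 and 13.6 CPM in MI libraries (log2 fold change -0.43 ± 0.14, edgeR adjusted p = 0.0470). Its call also held in only 2 of the 8 fits that left out a library, and its direction turned on the FPKM scale, at 0.11.

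**Figure D4:**
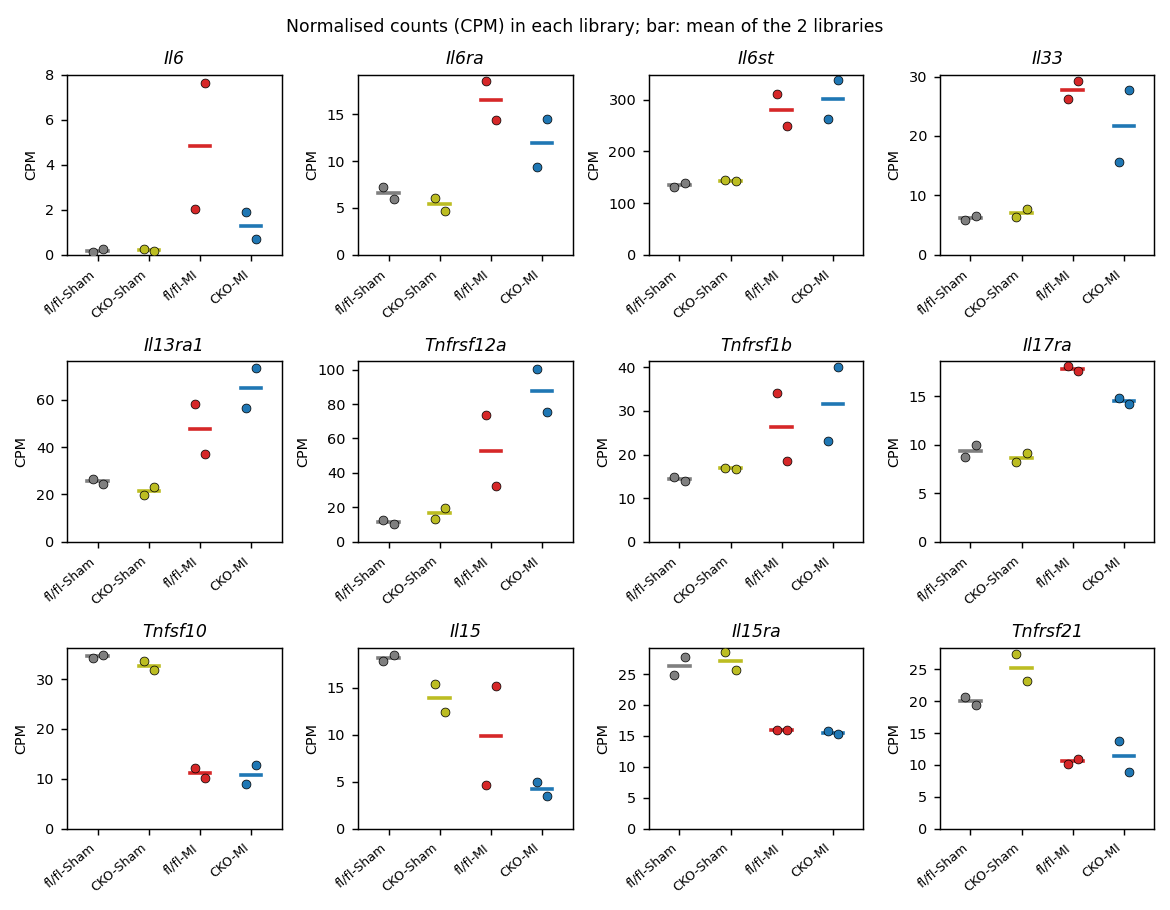
CPM of 12 members in each library, with a bar at the mean of the 2 libraries of a group and every axis starting at 0. The MI points lie above the sham points in the 8 upper and middle panels, from Il6 to Il17ra, and below them in the bottom row except for Il15, where fl/fl-MI 2 at 15.2 CPM lies among the sham libraries.

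In the IL-17 family 4 of 10 members were tested and Il17ra, the shared receptor chain, was called higher. It was at 8.70, 9.95, 8.23 and 9.13 CPM in sham and 18.1, 17.6, 14.9 and 14.2 CPM in MI libraries, with no overlap (log2 fold change 0.84 ± 0.12, edgeR adjusted p = 0.00226). Among the 3 tested IL-10 family genes the ligand-binding chain Il10ra was called higher. It was at 8.36, 6.77, 7.30 and 8.16 CPM in sham and 20.1, 11.0, 8.33 and 10.4 CPM in MI libraries, overlapping through CKO-MI 1 (log2 fold change 0.66 ± 0.22, edgeR adjusted p = 0.0465), and the call held in only 1 of the 8 fits that left out a library. The shared chain Il10rb differed by -0.10 ± 0.18 and did not pass (edgeR adjusted p = 0.698), while on log2(FPKM + 1) it was higher at 0.41 ± 0.14 (limma adjusted p = 0.0392). Il3ra, the IL-3 receptor alpha chain, was at 6.04, 5.94, 7.93 and 5.74 CPM in sham and 4.38, 4.38, 2.55 and 2.48 CPM in MI libraries, with no overlap and the CKO libraries lowest (log2 fold change -0.95 ± 0.17, edgeR adjusted p = 0.00568). On log2(FPKM + 1) the call of Il3ra was lost (-0.21 ± 0.11, limma adjusted p = 0.146). Il34, a ligand of the colony stimulating factor 1 receptor, differed by -0.54 ± 0.27 (adjusted p = 0.154), and Il16, a T-cell attractant, by -0.18 ± 0.43 (adjusted p = 0.752). None of the 6 genes placed in the IL-12 family here was tested, with Il27 and its receptor Il27ra placed in the IL-6 family.

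Of the 53 members below the filter, 30 had a count of 0 in at least 1 library. In a fit without the filter edgeR called 22 of the 101 members after MI (21.8%, against 17.1% of all 33249 genes), and 4 of them, Il11, Il12b, Il17re and Tnfsf11, lay below the filter. Il17re, a receptor chain for IL-17C, was at 19 to 40 counts in sham and 56 to 199 counts in MI libraries, with no overlap (log2 fold change 1.59 ± 0.40, edgeR adjusted p = 0.0145). Tnfsf11, the osteoclast factor RANKL, had 0, 0, 6 and 4 counts in sham and 42, 25, 6 and 52 counts in MI libraries, and Il12b, the p40 chain of IL-12 and IL-23, 0 in every sham library and 69, 0, 14 and 19 counts in MI libraries. These counts are too low for a stable fold change.

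MI was next compared within each genotype, where no library is in both comparisons. Both came from the same fit of all 8 libraries with a shared estimate of the spread, so their calls are not independent. In fl/fl hearts 12 of 48 members were called (25.0%, against 18.5% of all genes), 8 higher and 4 lower, where all genes gave 10.1% and 8.45%. In CKO hearts 13 were called (27.1%, against 24.7%), 7 higher and 6 lower, where all genes gave 12.8% and 11.9%. The direction was the same in both genotypes for 41 of 48 members (85.4%) and for 78.3% of all genes tested. Tnfrsf12a differed by 2.21 ± 0.41 in fl/fl and 2.41 ± 0.41 in CKO hearts on the log2 scale, Il6st by 1.06 ± 0.19 and 1.07 ± 0.19, and Tnfsf10 by -1.62 ± 0.20 and -1.59 ± 0.20. These genes are among the members called in the same libraries with the genotypes pooled, so their nearly equal values are no separate check. Other called members differed more, such as Il3ra at -0.45 in fl/fl and -1.44 in CKO hearts. Il33 differed by 2.16 ± 0.29 and 1.63 ± 0.28, and Il6 by 4.68 ± 0.86 (edgeR adjusted p = 0.0148) and 2.49 ± 0.80 (adjusted p = 0.0610). The counts of calls depend on single libraries: leaving out a sham library lowered them among the members and among all genes alike. In such a fit a group is left with 1 library, which is assumed to vary like the others.

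**Figure D5:**
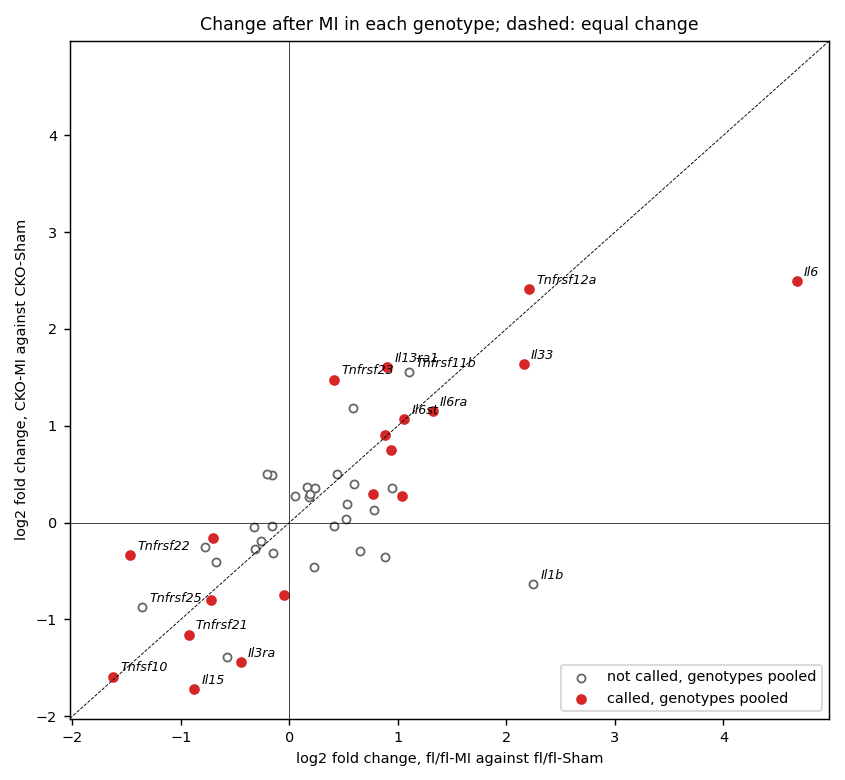
Log2 fold change after MI in fl/fl hearts (x axis) and in CKO hearts (y axis) for the 48 tested members, with a dashed line at equal change and red points for the 19 called with the genotypes pooled. Il6 lies to the right of the line at 4.68 and 2.49, Tnfrsf12a, Il6st and Tnfsf10 close to it, and Il1b, not called, at 2.25 and -0.64.

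The comparison that the study turns on was CKO-MI against fl/fl-MI. No member was called at an adjusted p under 0.05 by edgeR or by DESeq2, and of all genes tested edgeR called 0.0% and DESeq2 1.48%. At an unadjusted p under 0.05, 6 of 48 members passed (12.5%, against 8.31% of all genes), 1 higher (3.07% of all genes) and 5 lower (5.24%), and 3 of the 6 also changed at least 2-fold (6.25%, against 3.21%). Libraries of the groups did not overlap for 16 members (33.3%, against 30.0%). An exact permutation test of 2 against 2 libraries cannot give a p below 0.333. The values are therefore descriptions of these 4 libraries.

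Tnfrsf22 had the largest positive difference among these, with 2.80 and 1.62 CPM for fl/fl against 5.06 and 3.93 CPM for CKO hearts (log2 difference 1.02 ± 0.33, edgeR unadjusted p = 0.0164, adjusted p = 0.549). Its neighbour Tnfrsf23 differed by 0.75 ± 0.38 and Il13ra1 by 0.45 ± 0.24, with overlapping libraries. Leaving out 1 library moved Tnfrsf22 between 0.68 and 1.49, Tnfrsf23 between 0.25 and 1.16 and Il13ra1 between 0.16 and 0.82, each highest without fl/fl-MI 1. That fit leaves fl/fl-MI 2, the library with the high atrial markers, alone for its group. On the lower side, Il3ra stood at 4.38 CPM in both fl/fl libraries, above the 2.55 and 2.48 CPM of the CKO libraries (log2 difference -0.80 ± 0.24, edgeR adjusted p = 0.549). Il6 differed by -1.91 ± 0.74 (adjusted p = 0.571) and by -0.66 ± 0.65 without fl/fl-MI 2, so most of its difference rested on that library. Il1rap differed by -0.49 ± 0.19 (adjusted p = 0.570).

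The differences also depend on which fl/fl-MI library is used. When fl/fl-MI 1 was left out and fl/fl-MI 2 alone stood for its group, 9 members were called (18.8%, against 11.9% of all genes), 7 higher in CKO-MI and 2 lower. The 2 lower were Il6 and Il15, and among the higher were Tnfrsf25, death receptor 3, at 3.28 ± 0.50, Il21r at 2.36 ± 0.50 and Tnfrsf12a at 1.46 ± 0.30 on the log2 scale. When fl/fl-MI 2 was left out instead, no member was called, while 0.192% of all genes were. The same library was the lowest of the 4 MI libraries for 20 of the 48 members (41.7%, against 34.5% of all genes) and the highest for 10 (20.8%, against 33.5%). It lay more than 2-fold below the next library for 6 members (12.5%, against 3.31%) and more than 2-fold above it for 2 (4.17%, against 4.07%). Among the members below the filter, Il25 had 189 counts there and 0 to 12 elsewhere, Il10 163 and 10 to 27, and Tnfrsf19 653 and 41 to 113. The T-cell markers summed to 6.65 CPM in fl/fl-MI 2 and to 14.7 to 19.8 CPM in the other MI libraries. Those of neutrophils and mast cells were highest there among MI libraries, at 13.8 and 33.0 CPM. Atrial markers of this library also move with these values, and the part of all these markers was not tested.

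In sham hearts no member was called between the genotypes, where 1 of 14028 genes was (0.00713%). Only Il18bp passed an unadjusted p under 0.05 (2.08% of members, against 3.89% of all genes), at 8.56 and 7.23 CPM in fl/fl-Sham and 5.49 and 5.84 CPM in CKO-Sham (log2 difference -0.48 ± 0.20, edgeR adjusted p = 0.9997), and it overlaps Numa1 on the other strand. Tnfsf12 was at 16.1 and 17.3 CPM in fl/fl-Sham and 21.9 and 20.6 CPM in CKO-Sham (0.35 ± 0.17). The interaction of genotype and MI, tested directly, called no member (0.0% of all genes), and 3 members passed an unadjusted p under 0.05 (6.25%, against 8.49%).

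Genes that pass on the signals were read from lists of the same pathways. Of 23 tested family genes whose names fall outside the rule, 5 were called higher after MI and 4 lower (39.1%, against 40.4% of all genes). Osm, oncostatin M, rose by 2.40 ± 0.62 on the log2 scale (edgeR adjusted p = 0.0207), although CKO-MI 2 at 0.237 CPM lay within the sham range, whereas Lifr, the receptor chain for leukemia inhibitory factor, fell by 0.85 ± 0.13. Sigirr, a brake on IL-1 receptors, fell from 12.1 to 19.6 CPM in sham to 2.08 to 5.08 CPM in MI libraries, and Fas, the death receptor, from 24.7 to 33.9 to 8.34 to 12.4 CPM. These 2 had log2 fold changes of -2.03 ± 0.26 and -1.67 ± 0.16.

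Of 16 tested JAK-STAT genes, 6 were called higher and 2 lower (50.0%, against 40.4% of all genes). Stat3, the main STAT of gp130 receptors, rose from 75.8 to 83.4 CPM in sham to 142.6 to 188 CPM in MI libraries (log2 fold change 1.11 ± 0.12, edgeR adjusted p = 0.00110). Socs3, the feedback inhibitor that STAT3 induces, was at 11.1 to 13.5 CPM in sham, at 18.0, 19.1 and 23.3 CPM in 3 MI libraries and at 244 CPM in fl/fl-MI 2, the library that also had the highest Il6. Jak1 and Jak2 rose by 0.49 ± 0.11 and 0.40 ± 0.09, and Jak3, which serves the common gamma chain, fell from 66.3 to 76.9 CPM in sham to 22.6 to 38.5 CPM in MI libraries (log2 fold change -1.25 ± 0.13).

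Among 17 tested TNF receptor adaptors and cell death genes, 3 were called higher and 2 lower (29.4%), and this and the shares of the next lists stand against the same 40.4%. Tnip1, Traf3 and Cyld, known as negative regulators of NF-kappaB signalling, rose, with log2 fold changes of 1.05 ± 0.09, 1.47 ± 0.18 and 0.86 ± 0.12, and Ripk3 and Casp8, a kinase and a protease of cell death, fell by 0.57 ± 0.19 and 0.56 ± 0.16. Of 12 NF-kappaB genes 3 were called higher, Rel, Nfkb2 and Ikbkg, and 1 lower, Ikbkb (33.3%). Of 15 IL-1 receptor adaptor and inflammasome genes Tab2 and Irak1 were called higher and Gsdmd, the pore-forming protein of inflammatory cell death, and Tab1 lower (26.7%). No gene of the 5 lists was called between the genotypes after MI.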

How the data were processed

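RNA was sequenced from 8 libraries of mouse myocardium in 4 groups of 2, grouped by the deposited labels. Poly(A) RNA was read as paired ends with a kit that marks strand, and the submitters' processing notes name cutadapt 1.9 and FastQC. The aligner, the counter, its strand setting and the genome build are not given in the sources used here. All 101 member identifiers were found in GENCODE release 21 for mouse (GRCm38), 84 with the same coordinates. The authors deposited whole-number counts per gene, not normalized, and FPKM per gene and transcript, normalized by them to length and library size. Low counts piled up at multiples of 4 (a mean of 1106 genes per library had a count of 4, 469 a count of 3), so counts were also divided by 4 as an alternative. Columns of the authors' own fold changes and p-values were not used.

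Genes averaging 0.5 FPKM or more were fitted together with edgeR 4.0.16 in R 4.3.3 (quasi-likelihood test, TMM, all 8 libraries, a mean per group), with p-values adjusted over 14028 genes. A call is an adjusted p under 0.05, or where stated an unadjusted p under 0.05 with at least 2-fold change. CPM are counts scaled to the TMM-adjusted library totals. A SE is that of the log2 fold change, from its F statistic. limma 3.58.1, DESeq2 1.42.0, other normalization, no filter and leaving out libraries were alternatives. Tables and figures used Python 3.11.15, pandas 2.3.3, SciPy 1.17.1 and matplotlib 3.10.9. The tests were tried on simulated data.

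The genes named were, in each direction, the 8 called members with the largest pooled change after MI, those with the smallest p between genotypes (3 after MI, 2 in sham), the 5 highest by FPKM, and well-known members such as Tnf, Il1b and Il10. Il4, Il12b, Il17re, Il21r, Il25, Il27ra, Tnfrsf19 and Tnfrsf25 were named after their values were seen. The members and all lists were chosen with earlier results of these data known. The values of 1 gene of the pathway lists are not reported here.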

Additional observations from a re-analysis of the deposited data

Results flagged for a closer look

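For 3 members the change after MI differed between the genotypes at an unadjusted p under 0.05 in edgeR's interaction test, and none passed the adjustment (adjusted p = 0.574 for each). Tnfrsf22, a TRAIL decoy receptor, had an interaction of 1.13 ± 0.46 on the log2 scale, with a change after MI of -1.47 ± 0.33 in fl/fl and -0.33 ± 0.32 in CKO hearts. Il3ra had an interaction of -0.99 ± 0.34, with changes of -0.45 ± 0.24 and -1.44 ± 0.24. Tnfsf12 had an interaction of -0.70 ± 0.24, where sham libraries of CKO hearts were above those of fl/fl hearts and MI libraries of CKO hearts below. Of all genes tested 8.49% had an unadjusted p under 0.05 in this test, against 6.25% of the members. No cause was tested. No group held 4 or more libraries, so single libraries could not be checked for outliers within a group.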

How the results depend on the processing

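After MI with the genotypes pooled, 10 members passed the 2-fold rule, and leaving out 1 library gave 11 to 24 calls against 19. In fl/fl hearts 2 members were called when only the 4 libraries compared were fitted, and leave-one-out gave 0 to 18. In CKO hearts leave-one-out gave 0 to 16. For CKO-MI against fl/fl-MI 3 members passed the 2-fold rule and leave-one-out gave 0 to 9, and for the interaction 1 and 0 to 2. In sham hearts no setting gave a call. Leaving out 1 library moved the calls after MI the same way among members and among all genes. They fell without a sham or CKO-MI library and rose without an fl/fl-MI library. On log2(FPKM + 1) 9 of the 48 members turned from lower to higher after MI. Of the members named by rule, 4 turned. On log2(FPKM + 1) and log2(FPKM + 0.1) Il10rb was at 0.41 and 0.43, Il16 at 0.17 and 0.18, Il2rg at 0.11 and 0.12, and Tnfsf12 at 0.15 and 0.16. When 1 library was left out Il10rb lay between -0.33 and 0.062 and Il16 between -0.94 and 0.17, turning without fl/fl-MI 1 and fl/fl-MI 2 respectively. The FPKM scale differs from the counts in its median gene, which moved by 0.41. FPKM are scaled to library totals without the TMM factors used for the counts. Mitochondrially encoded genes took 43.1% to 46.4% of those totals in sham and 19.9% to 24.2% in MI libraries. Their part in these turns was not tested. limma on log2(FPKM + 1) called 23 members (47.9%, against 56.1% of all genes), 13 of them among the 19, and DESeq2 21 (43.8%, against 46.2%), including all 19. Of the 19, 9 were called in every alternative fit: Il6, Tnfrsf12a, Il33, Il13ra1, Il6ra, Il6st, Il17ra, Tnfsf10 and Tnfrsf21.

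With the replicate number as a replicate block 15 members were called after MI (31.2%, against 36.2% of all genes), all among the 19, and 0 between the genotypes. The numbers do not mark a pairing: within-group differences correlated between -0.14 and 0.06.

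With 2 libraries a group, a missing call does not show that groups were equal, and members below 0.5 FPKM rest on few counts.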
